A study of Homo sapiens with 6 samples.

Results

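The CDK inhibitor genes are the 7 human genes whose products bind and block cyclin-dependent kinases, namely CDKN1A, CDKN1B and CDKN1C of the CIP/KIP family and CDKN2A, CDKN2B, CDKN2C and CDKN2D of the INK4 family. They were chosen by symbol, through the Ensembl identifiers of GENCODE release 29, and all 7 of the 7 were present among the 32364 genes of the expression table. The mRNA sequencing data came from Kasumi-1 cells, an acute myeloid leukemia cell line of the M2 subtype with a translocation that fuses RUNX1 (AML1) with RUNX1T1 (ETO). The control group held 3 libraries of cells incubated with the control for 48 h, which the methods describe as the solvent DMSO. The treated group held 3 libraries of cells given I13 at 0.5 µM, also for 48 h. I13 is an inhibitor of histone deacetylases (HDACs), the enzymes that remove acetyl groups from histones, and it contains indole-3-butyric acid. All libraries came from 1 cell line, so they hold no other genetic background.

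The cell division cycle is driven by kinases that are active only when bound to a cyclin. INK4 proteins bind CDK4 and CDK6 and keep D-type cyclins from activating them, whereas CIP/KIP proteins bind complexes of cyclins with CDK2 and with other CDKs. Both families slow the passage from G1 into S phase through the pocket protein RB, and several of them rise when blood cells mature and leave the cycle. CDKN1A is also widely known as a gene that HDAC inhibitors raise, through the GC boxes that bind the factor Sp1 next to its start site, and a similar response has been described for CDKN2B. The study followed the cell cycle of Kasumi-1 cells by flow cytometry, at the same I13 dose and at times that included 48 h. It reports that the share of cells in G0/G1 rose significantly with treatment time, and proposes that I13 may induce arrest there. How those cultures relate to the sequenced ones is not stated. The comparison here addresses whether transcripts of these inhibitors differed in cells taken at 48 h. The flow cytometry values were not analysed here.

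Stretches before the start sites of CDKN1A and CDKN2B are shown because both genes are textbook cases of a response through GC boxes. A further reason is that neither passed 1 FPKM in any library here. The stretches are taken from RefSeq on GRCh38.p14, begin 250 bases before the annotated start, and end where an annotated exon of the same gene begins. The last 56 bases before the start of CDKN1A and the last 58 before that of CDKN2B are thus not printed. The capitals mark the GC box letters GGGCGG, searched on both strands, so that CCGCCC marks a box on the other strand.
CDKN1A, chr6:36678464-36678657, plus strand: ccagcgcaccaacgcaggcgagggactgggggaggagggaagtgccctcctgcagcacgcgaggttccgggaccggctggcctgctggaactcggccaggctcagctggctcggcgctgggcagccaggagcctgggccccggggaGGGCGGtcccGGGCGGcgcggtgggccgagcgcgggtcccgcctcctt
CDKN2B, chr9:22009364-22009555, minus strand: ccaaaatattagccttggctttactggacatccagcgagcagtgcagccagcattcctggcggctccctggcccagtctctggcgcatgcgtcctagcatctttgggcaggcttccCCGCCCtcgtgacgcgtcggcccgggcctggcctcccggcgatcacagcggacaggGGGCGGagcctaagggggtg
Over the full 250 bases, CDKN1A held 4 of these boxes, 2 of them in the printed stretch, and CDKN2B held 2, all printed. Boxes were not particular to them, as CDKN2D held 2 and CDKN1B held 1. The windows of CDKN2A held 1 and 0, and those of CDKN2C held 0, 5 and 1. At least 1 box was found in 42.6% of 35116 windows of this length before annotated starts, and 3 or more in 13.9%. Windows were found for 6 of the 7 genes. A match is a description of the letters and does not show that a factor bound there.

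The values are FPKM, which scale the fragments of a gene to its exon length and to the size of the library. Levels of different genes can be set side by side only as far as that length fits the transcripts present, which is not known here. The libraries held between 15281052 and 17221345 fragments. Genes that define Kasumi-1 were expressed, with means in control cells of 11943 FPKM for MPO, 225 FPKM for KIT, 113.8 FPKM for SPI1, 40.3 FPKM for CD34 and 13.6 FPKM for RUNX1T1. Markers of T cells, B cells, erythroid cells and fibroblasts were below 2 FPKM on average in both groups, and among the epithelial markers EPCAM alone was high, at 23.8 FPKM in control and 23.9 FPKM in I13 cells. Control replicate 3 and I13 replicate 2 stood apart from the other 4 libraries on the first principal component, which carried 43.3% of the variance of 4133 genes, and the labels name no batch. Differences are therefore also given within the 4 libraries and within that pair. This was done for the CDK inhibitor genes tested and for other genes named for an unadjusted p under 0.05 from limma. Nothing in the labels says whether the replicates were separate cultures. The study calls its sequencing figures representative of 3 independent experiments, without saying how the libraries relate to them. The p-values therefore measure the spread between these libraries, which may be technical. In bulk RNA, fewer cells that express a gene and less RNA of that gene per cell cannot be told apart.

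CDKN2C and CDKN1B carried most of the CDK inhibitor RNA in Kasumi-1 cells. Of the 6 genes with enough signal for a test, 0 differed between I13 and control libraries beyond the spread between libraries. CDKN2C, the INK4 inhibitor p18, and CDKN1B, the CIP/KIP inhibitor p27, were at about 60 and 50 FPKM. CDKN1A, which encodes p21, was below 1 FPKM in every library of both groups, and CDKN2B, which encodes p15, had at most 1 fragment in any library. The limma fit called 0 of the 6 CDK inhibitor genes that passed the minimum mean of 0.1 FPKM, both at an adjusted p under 0.05 and at an unadjusted p under 0.05. Over all 18726 genes tested, limma called 0 (0%) at an adjusted p under 0.05 with a log2 fold change of 0.58 or more in either direction, and 963 (5.14%) had an unadjusted p under 0.05, 2.55% of all genes being higher and 2.59% lower in I13 cells, and 2.38% also passing the fold. The 2 groups were fully apart, with no overlap of their values, in 0 of these 6 genes, while 1783 (9.52%) of the genes tested were so, 4.88% with higher and 4.64% with lower values in I13 cells. With voom, limma's test for fragment counts, 0 of the same 6 genes had an unadjusted p under 0.05, against 788 (5.69%) of 13853 genes tested, and 0 passed its adjusted p with the fold, against 11 (0.0794%).

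**Figure D1:**
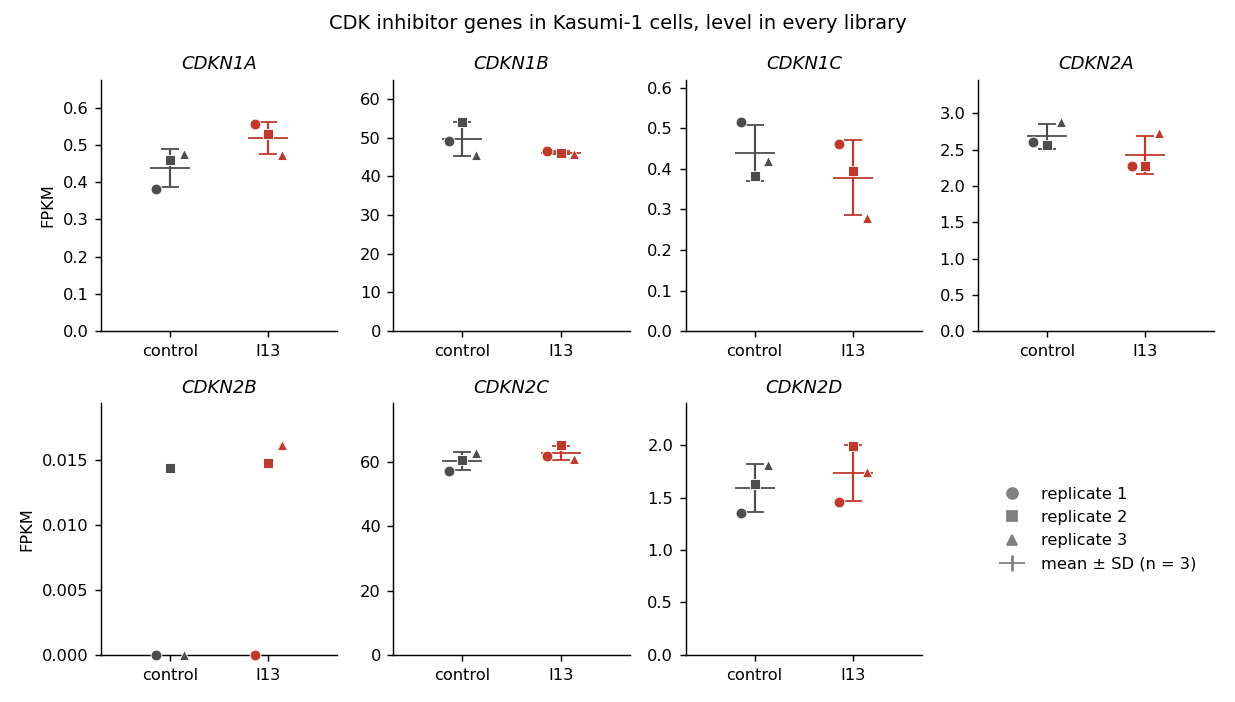
FPKM of each CDK inhibitor gene (vertical axes from 0, a separate scale for each gene) in the 3 control and the 3 I13 libraries of Kasumi-1 cells, with symbols for replicates 1 to 3 and bars for the mean and SD, which are not drawn for CDKN2B. The groups overlap for all 7 genes, and CDKN2C and CDKN1B lie far above the others.

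Among the CIP/KIP genes, CDKN1A (ENSG00000124762) lies at positions 36676460 to 36687339 of chromosome 6 (plus strand), on hg38 as annotated by GENCODE, like all gene positions here. It encodes p21, which blocks cyclin-CDK complexes in cell cycle arrest. Its level was 0.381, 0.459 and 0.475 FPKM in control replicates 1, 2 and 3 and 0.556, 0.531 and 0.472 FPKM in I13 replicates 1, 2 and 3. These values rested on 20 to 27 fragments per library. I13 replicates 1 and 2 were above every control library, and I13 replicate 3 lay between control replicates 2 and 3. The means were 0.438 ± 0.0503 FPKM (SD, n = 3) in control and 0.520 ± 0.0431 FPKM (SD, n = 3) in I13 cells. The log2 fold change from limma was 0.21 (standard error, SE, 0.22, 95% interval from -0.31 to 0.72, adjusted p = 0.995), which as a fold is 1.15 with limits of 0.806 and 1.65. Because 0.1 was added to each FPKM, this scale understates the change of a gene at this level, and adding 0.01 instead gave 0.24. Summed over libraries at equal depth, 68 control and 76 I13 fragments gave a ratio of 1.19, with an exact 95% interval from 0.846 to 1.67 that covers counting error only. The interval of the difference thus holds both no change and an increase past 0.58, and these data cannot tell them apart at this depth. Within the 4 libraries the log2 fold change was 0.24, and in the pair it was 0.13. On the level scale, 36.1% of protein-coding genes in the table had a lower mean FPKM than CDKN1A. DINOL, a noncoding RNA gene on the opposite strand, overlaps CDKN1A, and the strand setting of the counting is not given in the sources used here.

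CDKN1B (ENSG00000111276) lies at positions 12715058 to 12722371 of chromosome 12 (plus strand) and encodes p27, which holds cyclin E-CDK2 inactive in resting cells. Its level was 49.2, 54.1 and 45.5 FPKM in control replicates 1, 2 and 3 and 46.5, 46.1 and 45.7 FPKM in I13 replicates 1, 2 and 3. The 3 I13 libraries lay close together and inside the range of the control libraries, toward its lower end. The log2 fold change from limma was -0.10 (SE 0.066, 95% interval from -0.26 to 0.054, adjusted p = 0.983), or a fold of 0.931 with limits of 0.836 and 1.04, so a change past the fold threshold lies outside the interval. The counts alone, 7116 control and 6208 I13 fragments, gave a ratio at equal depth of 0.928 with an exact 95% interval from 0.897 to 0.960. That interval leaves out the spread between replicates, which in the control libraries was a coefficient of variation of 8.67%, where counting alone gives 2.05%. In the I13 libraries the coefficient of variation was 0.938%, against 2.20% from counting. Within the 4 libraries the log2 fold change was -0.16 (unadjusted p = 0.0421, adjusted p = 0.610 from limma on those libraries). Control replicate 3 against I13 replicate 2 gave 0.018, so the sign was not the same in both. The fit to the 4 libraries was chosen after the data had been seen. In it 1513 genes had an unadjusted p under 0.05, against 963 in the fit to all libraries. Without control replicate 3 the unadjusted p from limma was 0.0266 (adjusted p = 0.736), in a fit where 1179 genes were under 0.05 unadjusted. Without control replicate 2, the library with the highest value, the log2 fold change was -0.038. Of the protein-coding genes, 95.8% had a lower mean FPKM than CDKN1B.

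CDKN1C (ENSG00000129757), at positions 2883213 to 2885773 of chromosome 11 (minus strand), encodes p57 and is an imprinted gene that is read from the maternal copy. Its level was 0.516, 0.383 and 0.420 FPKM in control replicates 1, 2 and 3 and 0.461, 0.394 and 0.278 FPKM in I13 replicates 1, 2 and 3. I13 replicate 3 was the lowest of the 6 libraries, and the other I13 libraries lay within the control range. Between 11 and 23 fragments stood behind a value. The log2 fold change from limma was -0.19 (SE 0.27, 95% interval from -0.82 to 0.45, adjusted p = 1.000). The 4 libraries gave -0.24 and the pair -0.074. The coefficient of variation was 15.6% in control and 24.5% in I13 libraries, where counting alone gives 22.7% and 25.3%. KCNQ1OT1, the noncoding RNA of the same imprinted region, was at a mean of 0.175 FPKM in control and 0.168 FPKM in I13 cells.

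Among the INK4 genes, CDKN2C (ENSG00000123080) lies at positions 50960745 to 50974633 of chromosome 1 (plus strand). It encodes p18, an inhibitor of CDK4 and CDK6 that limits the division of blood stem and progenitor cells. Its level was 57.4, 60.8 and 62.8 FPKM in control replicates 1, 2 and 3 and 62.1, 65.3 and 61.0 FPKM in I13 replicates 1, 2 and 3. I13 replicate 2 was the highest of all libraries and control replicate 1 the lowest, while the other 4 libraries of both groups lay between 60.8 and 62.8 FPKM. The log2 fold change from limma was 0.057 (SE 0.052, 95% interval from -0.065 to 0.18, adjusted p = 0.983), or a fold of 1.04 with limits of 0.956 and 1.13. The 4 libraries gave 0.058 and the pair 0.055. The fragments, 10196 in control and 9985 in I13 libraries, gave a ratio at equal depth of 1.04 with an exact 95% interval from 1.01 to 1.07 for counting error only. The spread between control replicates, 4.54%, exceeded the 1.72% from counting. Of the protein-coding genes, 96.9% had a lower mean FPKM.

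CDKN2D (ENSG00000129355), at positions 10566462 to 10569059 of chromosome 19 (minus strand), encodes p19, another inhibitor of CDK4 and CDK6. Its level was 1.35, 1.63 and 1.81 FPKM in control replicates 1, 2 and 3 and 1.46, 1.99 and 1.74 FPKM in I13 replicates 1, 2 and 3. Replicate 1 was the lowest library of each group, and I13 replicate 2 was the highest of the 6. The log2 fold change from limma was 0.11 (SE 0.17, 95% interval from -0.28 to 0.50, adjusted p = 1.000), resting on 35 to 50 fragments per library. It was 0.099 in the 4 libraries and 0.13 in the pair. Without control replicate 1 it was 0.0033, and without I13 replicate 2 it was 0.0094. For both CDKN2C and CDKN2D the highest library of each group was control replicate 3 or I13 replicate 2, the pair that stood apart over all genes, and the part of that pattern in these values was not tested.

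CDKN2A (ENSG00000147889) is found at positions 21967753 to 21995301 of chromosome 9 (minus strand). It gives rise to the CDK4 and CDK6 inhibitor p16 and, from another first exon, to ARF, a protein of the nucleolus that is not a CDK inhibitor, and the values for the whole gene do not separate them. Its level was 2.60, 2.57 and 2.89 FPKM in control replicates 1, 2 and 3 and 2.28, 2.27 and 2.74 FPKM in I13 replicates 1, 2 and 3. I13 replicates 1 and 2 were below every control library, and I13 replicate 3 was above control replicates 1 and 2. The log2 fold change from limma was -0.14 (SE 0.11, 95% interval from -0.41 to 0.13, adjusted p = 0.983), with 592 control and 502 I13 fragments. The 4 libraries gave -0.049 and the pair -0.33. The exons of all CDKN2A transcripts together span 4329 bases, while its longest transcript has 1283 bases, so division by the first length gives a lower level than division by the second. With the longest transcript as the length it was at 9.06 ± 0.586 FPKM (SD, n = 3) in control and 8.19 ± 0.900 FPKM (SD, n = 3) in I13 cells.

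CDKN2B (ENSG00000147883), beside CDKN2A at positions 22002903 to 22009363 of chromosome 9 (minus strand), encodes p15, the INK4 inhibitor known for its response to TGF-beta and for silencing in myeloid leukemia. It had 0, 1 and 0 fragments in control replicates 1, 2 and 3 and 0, 1 and 1 fragments in I13 replicates 1, 2 and 3. The ratio at equal depth was 2.13 with an exact 95% interval from 0.111 to 126 for counting error only, so these counts show no direction. It did not reach the minimum mean of 0.1 FPKM and was not tested. CDKN2B-AS1, the antisense RNA gene that overlaps CDKN2B and the start of CDKN2A, was listed at 0 in all 6 libraries. MTAP, an enzyme gene on the same arm of chromosome 9 next to CDKN2A, was at 1.42 ± 0.212 FPKM (SD, n = 3) in control and 1.54 ± 0.0567 FPKM (SD, n = 3) in I13 cells, with a log2 fold change of 0.12 (SE 0.15) from limma.

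For single genes, an exact permutation test of 3 libraries against 3 cannot give a two-sided p below 0.1. Over the 7 genes it gave p-values between 0.2 for CDKN1A and 0.6 for CDKN2D. The log2 fold changes of the 6 genes tested had a median of -0.023, with 3 above and 3 below 0, and the median over all genes tested was 0.0058, with 51.8% above 0. CDKN1A, CDKN2C and CDKN2D were the 3 genes with a value above 0. The intervals were narrowest for CDKN2C and CDKN1B and widest for CDKN1C and CDKN1A, in the order of their fragments.

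**Figure D2:**
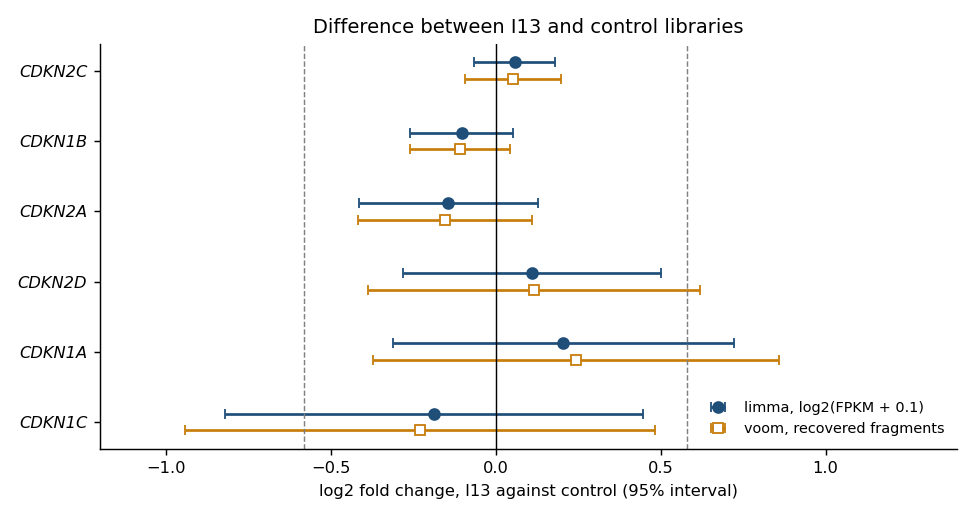
Log2 fold change of I13 against control (horizontal axis) for the 6 CDK inhibitor genes tested, with 95% intervals from limma on log2(FPKM + 0.1) (filled circles) and from voom on recovered fragments (open squares). The dashed lines mark the fold threshold of 0.58 on either side of 0. Every interval includes 0, and those of CDKN1A and CDKN1C reach past a threshold in both fits, as does that of CDKN2D by voom.

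The order of the 7 levels was the same in every library but for CDKN1A and CDKN1C. From high to low it was CDKN2C, CDKN1B, CDKN2A, CDKN2D, CDKN1A, CDKN1C and CDKN2B. CDKN2C was above CDKN1B in 6 of 6 libraries, by 0.36 on the log2(FPKM + 0.1) scale (SD 0.14, exact sign-flip permutation test over libraries, two-sided, p = 0.0313, adjusted p = 0.0375 over 6 pairs of neighbours). This is the smallest p that 6 libraries allow, and it was also found for CDKN1B above CDKN2A by 4.18, for CDKN2A above CDKN2D by 0.60 and for CDKN2D above CDKN1A by 1.60. CDKN1C was also above CDKN2B in 6 of 6 libraries at this p, but CDKN2B had at most 1 fragment per library, so the size on this scale is set by the 0.1 that was added and no ratio is given. CDKN1A and CDKN1C did not differ beyond their spread, with CDKN1A higher in 5 of 6 libraries by 0.19 (SD 0.31, exact p = 0.219, adjusted p = 0.219). Libraries of both groups entered these comparisons together. The order was taken from the means of these same libraries, so the p-values describe only how steady each ratio was between libraries. With the longest transcript as the length the order was the same and the same 5 pairs of neighbours passed, but CDKN1B was above CDKN2A by 2.54 and CDKN2A above CDKN2D by 2.24.

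The summed level of the 7 genes was 112, 120.0 and 114.0 FPKM in control replicates 1, 2 and 3 and 113, 117 and 112 FPKM in I13 replicates 1, 2 and 3. CDKN2C held 52.4% ± 2.37 (SD, n = 3) of this sum in control and 55.1% ± 0.790 (SD, n = 3) in I13 cells. CDKN1B held 43.1% ± 2.74 (SD, n = 3) and 40.5% ± 0.803 (SD, n = 3). CDKN1A held 0.380% ± 0.0377 (SD, n = 3) in control and 0.456% ± 0.0344 (SD, n = 3) in I13 cells. CDKN2A held 2.34% in control cells. These shares depend on the length used for each gene. With the longest transcript as the length, control means were 69.0 FPKM for CDKN2C, 52.5 FPKM for CDKN1B and 9.06 FPKM for CDKN2A. The share of CDKN2A would be larger at that length. By family, the INK4 genes summed to 64.6 ± 3.10 FPKM (SD, n = 3) and 67.0 ± 2.26 FPKM (SD, n = 3), and the CIP/KIP genes to 50.5 ± 4.28 FPKM (SD, n = 3) and 47.0 ± 0.567 FPKM (SD, n = 3), in control and I13 cells respectively. The sums overlapped between the groups for the total and for both families.

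**Figure D3:**
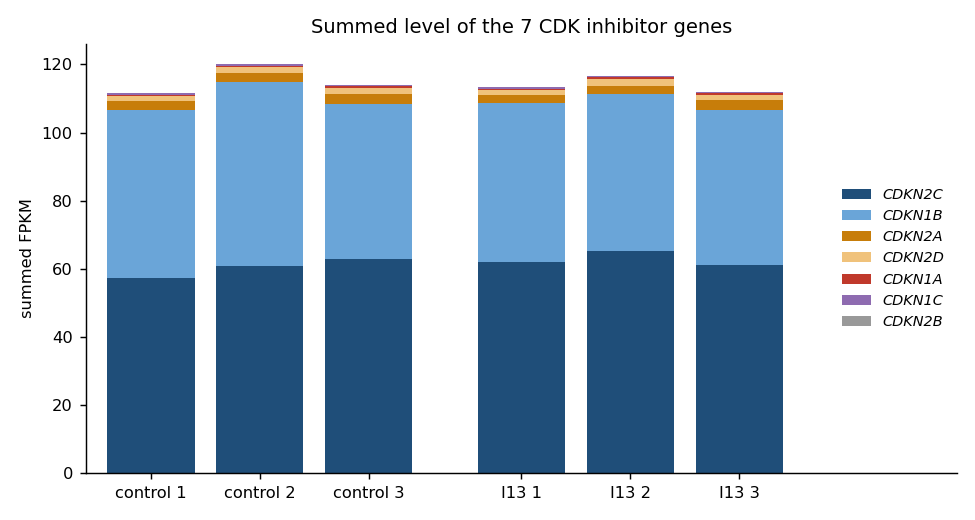
Summed FPKM of the 7 CDK inhibitor genes (vertical axis from 0) in each of the 3 control and 3 I13 libraries, with the part of each gene in its own color. CDKN2C and CDKN1B fill most of every bar, and the bars of both groups lie between 112 and 120.0 FPKM.

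The kinases and cyclins that these inhibitors bind were compared next, in a list of 24 cyclins, CDKs, pocket proteins and E2F factors. Of the 23 genes tested, 15 were above and 8 below 0, with a median log2 fold change of 0.048. An unadjusted p under 0.05 was found for 2 (8.70%), both higher in I13 cells, against 5.14% of all genes, and 0 passed the adjusted p. CCND1, which encodes cyclin D1, was at 0.962, 1.30 and 0.887 FPKM in control replicates 1, 2 and 3 and at 1.72, 1.56 and 1.54 FPKM in I13 replicates 1, 2 and 3, with every I13 library above every control library. Its log2 fold change from limma was 0.59 (SE 0.17, unadjusted p = 0.0111, adjusted p = 0.875). The 4 libraries gave 0.50 and the pair 0.75. E2F1, a factor that turns on genes of S phase, was at 25.0 ± 1.90 FPKM (SD, n = 3) and 28.2 ± 1.26 FPKM (SD, n = 3), with a log2 fold change of 0.17 (SE 0.069, unadjusted p = 0.0390, adjusted p = 0.947 from limma), 0.19 in the 4 libraries and 0.15 in the pair. In the pair, 10 of the 23 genes were above 0.

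The direct targets of the INK4 proteins were expressed at levels near that of CDKN2C. CDK4 had a mean of 43.6 FPKM in control and 45.3 FPKM in I13 cells, and CDK6 had means of 60.8 FPKM and 62.0 FPKM. Their log2 fold changes from limma were 0.056 (SE 0.077) and 0.023 (SE 0.084). Cyclin D2 (CCND2) was the D-type cyclin with the highest level, at 24.7 ± 1.73 FPKM (SD, n = 3) and 23.4 ± 0.250 FPKM (SD, n = 3), and CCND3 was at 3.48 ± 0.370 FPKM (SD, n = 3) and 3.90 ± 0.160 FPKM (SD, n = 3). Of the targets of the CIP/KIP proteins, CDK2 had a log2 fold change of 0.14 (SE 0.092) at 5.23 FPKM in control cells, and CCNE1, cyclin E1, one of 0.053 (SE 0.090) at 10.5 FPKM. The groups overlapped for all 6 of these genes. As only 9.52% of all genes tested had no overlap, this does not set the 6 apart.

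Genes that act on the CDK inhibitors were examined in further lists. In a list of 17 genes drawn up around the ubiquitin ligases for p21, p27 and p57, 7 were above and 10 below 0. Not all of them are ligase genes, as PCNA is the clamp of DNA polymerase. Their median log2 fold change was -0.0051, and PCNA alone had an unadjusted p under 0.05 (1 gene, 5.88%, against 5.14% of all genes). SKP2, which recognises p27, was at 20.7 FPKM in control and 20.7 FPKM in I13 cells, with a log2 fold change of -0.0042 (SE 0.051). Of 29 transcription factors named as regulators of these inhibitors, 27 were tested, with a median log2 fold change of -0.041. Of these, E2F1 was higher and ID1, an inhibitor of differentiation, lower at an unadjusted p under 0.05 (2 genes, 7.41%, against 5.14% of all genes). E2F1 stands in this list and in that of the partners, as PCNA does in those of the ubiquitin ligases and of S phase. ID1 had a log2 fold change of -0.32 (SE 0.11, unadjusted p = 0.0222, adjusted p = 0.901 from limma), -0.49 within the 4 libraries and 0.032 within the pair. All 16 Polycomb genes that can repress the INK4 genes were tested, 8 above and 8 below 0, with a median of -0.024. Of these, 1 (6.25%, against 5.14% of all genes) had an unadjusted p under 0.05 and was lower in I13 cells, and 0 passed the adjusted p.

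Genes often raised by HDAC inhibitors in other cells, a list of 14 genes that includes CDKN1A, were mostly below 0 here. Of the 10 tested, 1 was above 0, and it was CDKN1A. The median log2 fold change was -0.11, and the values of 3 (30%) were lower in I13 cells with no overlap and an unadjusted p under 0.05, against 4.64% and 2.59% of all genes. GSN, which encodes the actin-binding protein gelsolin, was at 51.4 ± 0.974 FPKM (SD, n = 3) in control and 41.8 ± 3.13 FPKM (SD, n = 3) in I13 cells, with a log2 fold change of -0.30 (SE 0.061, unadjusted p = 0.00162, adjusted p = 0.540 from limma). H1F0, the linker histone H1.0, had a log2 fold change of -0.24 (SE 0.072, unadjusted p = 0.0138) and TXNIP, a binder of thioredoxin, one of -0.18 (SE 0.068, unadjusted p = 0.0321). In the 4 libraries and in the pair, GSN was at -0.36 and -0.17, H1F0 at -0.26 and -0.19, and TXNIP at -0.26 and -0.012, so that the difference of TXNIP was nearly absent from the pair. Of the 10 genes, 4 were above 0 in the 4 libraries and 2 in the pair. None of the 10 passed the adjusted p, and by voom the smallest adjusted p of these 3 genes was 0.0694, for GSN. The list was written from general knowledge, but with earlier results of these data known, so its shares are not independent of these data. It is not the study's.

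Genes of S phase and of G2/M, in the lists distributed with the Seurat package, were set beside the inhibitors because they follow the share of cells in those phases. Of 42 S phase genes tested, 38 (90.5%) were above 0, against 51.8% of all genes, the median log2 fold change was 0.076, and 7 (16.7%) had no overlap, all 7 higher in I13 cells, against 4.88% of all genes. An unadjusted p under 0.05 was found for 2 of them (4.76%), RPA2 and PCNA, against 5.14% of all genes, and 0 passed the adjusted p. PCNA, the clamp of DNA polymerase, was at 143 ± 5.30 FPKM (SD, n = 3) in control and 156 ± 6.61 FPKM (SD, n = 3) in I13 cells. RPA2, a binder of single-stranded DNA, had a log2 fold change of 0.13 (SE 0.049). Within the 4 libraries, 37 of the 42 genes were above 0 with a median of 0.11, while in the pair 22 of 42 were above 0 with a median of 0.0017. PCNA was at 0.18 in the 4 libraries and 0.0066 in the pair, and RPA2 at 0.14 and 0.12. Without I13 replicate 3 the median of the list was 0.039. Of 52 G2/M genes tested, 31 (59.6%) were above 0 with a median of 0.012, and PSRC1 alone (1 gene, 1.92%) had an unadjusted p under 0.05, with a log2 fold change of -0.16 (SE 0.055), -0.18 in the 4 libraries and -0.13 in the pair. In the pair, 14 of the 52 genes were above 0 with a median of -0.038, against 36 of 52 in the 4 libraries. MKI67, a marker of dividing cells, was at 40.5 ± 0.586 FPKM (SD, n = 3) and 41.4 ± 2.09 FPKM (SD, n = 3). Differences of this size in levels per gene do not give the share of cells in a phase. The cell cycle arrest that the study proposes from flow cytometry was not tested with these levels.

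**Figure D4:**
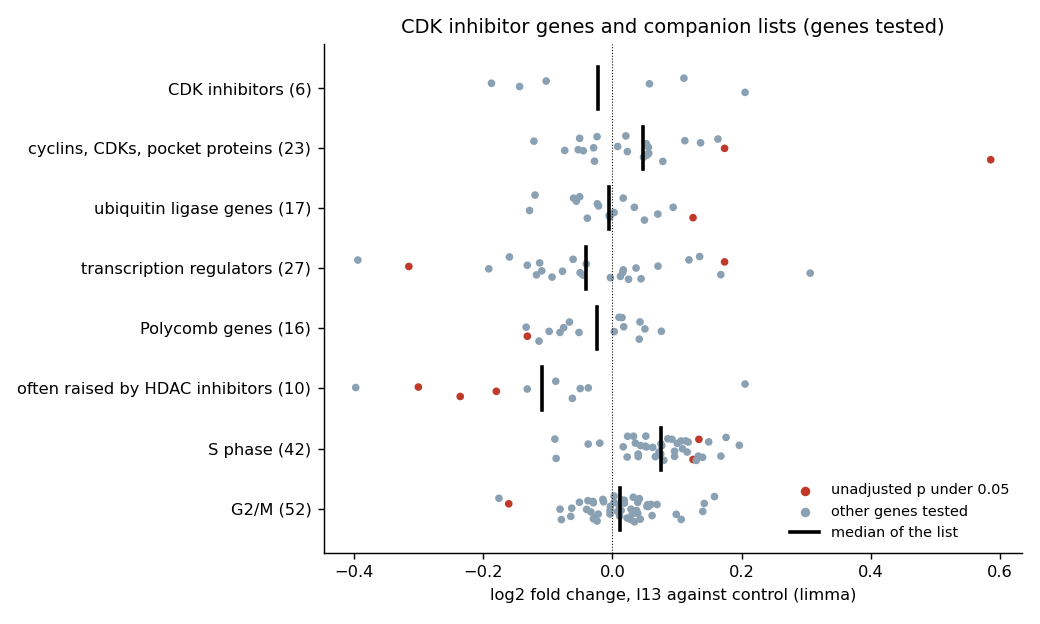
Log2 fold change of I13 against control from limma (horizontal axis) for each gene tested of the CDK inhibitors and of 7 companion lists, with the number tested in brackets, genes with an unadjusted p under 0.05 in red and the median of each list as a black bar. The CDK inhibitors spread on both sides of 0 between -0.19 and 0.21, and the medians of the lists lie between -0.11 and 0.076.

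For the 4 CDK inhibitor genes with a mean of at least 1 FPKM, the genes most like each of them across the 6 libraries were found among 6268 protein-coding genes with a mean of at least 5 FPKM, by Pearson's r of log2(FPKM + 0.1). For CDKN2C they were FBRSL1 (r = 0.984) and ZDHHC12 (r = 0.982), for CDKN2D PIEZO1 (r = 0.996) and ATAD3B (r = 0.994), for CDKN1B TMEM140 (r = 0.972) and DAZAP2 (r = 0.954), and for CDKN2A KIF2C (r = 0.975) and SLC6A6 (r = 0.962). An r above 0.9 was reached by 147 genes for CDKN2D and 111 for CDKN2C, against 22 for CDKN1B and 17 for CDKN2A. PIEZO1, like CDKN2D, was lowest in replicate 1 of each group and highest in I13 replicate 2, at 78.1 FPKM. With 6 points that share their library and its depth, and so many genes searched, these values describe the pattern only.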

How the data were processed

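mRNA libraries (TruSeq Stranded) of 3 control and 3 I13 samples of Kasumi-1 cells were compared, with groups and replicates from the sample titles. The authors deposited FPKM values, and the submitters' processing notes name Trimmomatic, HISAT2, Cufflinks, HTSeq and hg38, without versions or roles. The annotation used is not given in the sources used here. With GENCODE 29 exon lengths, 25773 of 27002 genes (95.4%) corresponded to whole fragment numbers, with a tolerance of 0.01 in every library. For the rest, CDKN1C among them, a length that made all of a gene's values whole was used. Totals were between 15281052 and 17221345 fragments.

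Log2(FPKM + 0.1) was fitted with limma 3.58.1 in R 4.3.3 with a variance trend over 18726 genes with a mean of at least 0.1 FPKM, with Benjamini-Hochberg adjustment over all of them. Calls needed an adjusted p under 0.05 together with a 0.58 change on the log2 scale. Unadjusted p-values under 0.05 were also counted. Voom was applied where the mean reached 10 fragments. Exact tests and intervals were computed with scipy 1.17.1. Lists for S phase and G2/M came from Seurat 5.3.0. The scripts were tested on simulated data. Genes were named by a rule: all CDK inhibitor genes, their direct partners and a few regulators, and of each list at most the 3 genes with the smallest unadjusted p under 0.05. The CDK inhibitor genes and all lists were chosen with earlier results of these data known. A list of genes beside the CDKN2A and CDKN1C loci had 4 tested genes, with a median log2 fold change of -0.0030. Some genes and 1 list are not reported here.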

Additional observations from a re-analysis of the deposited data

How the results depend on the processing

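The fold changes of the 6 CDK inhibitor genes were recomputed in 18 alternative settings, giving 106 values, of which 0 were called. In 34 of these the estimate could not differ from the one reported, as with the replicate block, another variance model or another filter, and the other 72, from other pseudocounts and scalings, voom and libraries left out, had the same direction. These settings share most of their libraries. Control replicate 3 against I13 replicate 2 alone, where CDKN1B was at 0.018, was not among them. The range was 0.080 to 0.26 for CDKN1A, -0.16 to -0.038 for CDKN1B, -0.31 to -0.028 for CDKN1C, -0.23 to -0.049 for CDKN2A, 0.022 to 0.087 for CDKN2C and 0.0033 to 0.22 for CDKN2D. The 14 shares were recomputed with other library sizes, but these cancel within a library, so the setting could not test the shares. They were not recomputed with the longest transcript as the length. The 6 pairs of neighbours kept their direction and side of the threshold with that length. Genes called at the adjusted p rose from 0 to 9 by limma without a trend and to 11 by voom, and were between 0 and 2 with a library left out, with 2 without I13 replicate 1. Genes with an unadjusted p under 0.05 and the fold fell from 445 to 134 with a pseudocount of 1, to 119 with a minimum of 1 FPKM and to 221 by voom. Without the fold, 963 became 582 with a minimum of 1 FPKM and 1513 in the 4 libraries alone, a setting chosen after the data had been seen. List medians moved by more than 1 SD of the list median between replicates in 12 of 162 recomputed values. With a minimum of 1 FPKM they were 0.0028 for Polycomb genes, 0.075 for the genes beside the loci and -0.13 for the genes often raised by HDAC inhibitors, which were at -0.075 with no filter. In the 4 libraries alone they were -0.037 for the ubiquitin ligases, 0.0068 for Polycomb genes and -0.20 for the HDAC inhibitor list. With a library left out they ranged from -0.066 to -0.014 for the regulators, from -0.063 to -0.0019 for Polycomb genes and from -0.20 to -0.094 for the HDAC inhibitor list. Within that SD, but by over 1.5 times, the median of the partners fell from 0.048 to 0.011 and that of S phase from 0.076 to 0.039 without I13 replicate 3. That of the partners was 0.014 without control replicate 1, and that of G2/M ranged from -0.0087 to 0.036 and that of the ubiquitin ligases from -0.011 to 0.0092, on both sides of 0. The cause was not tested. The deviations of same-numbered libraries from their group means had r = 0.083, -0.070 and -0.017 for replicates 1, 2 and 3. Control replicate 2 with I13 replicate 3 had r = 0.085, and control replicate 3 with I13 replicate 2 had 0.072. The remaining combinations were negative. Values this small, also for the libraries that stood apart together, cannot show whether any libraries were paired. With the replicate number as a block in limma, 0 genes were called, 862 had an unadjusted p under 0.05, and the unadjusted p of CDKN1A was 0.454. In this balanced design the block leaves the fold changes as they are. With 11 to 27 fragments per library, CDKN1A and CDKN1C could be compared only within wide intervals.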
